A study of Mus musculus with 12 samples.

Results

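The machinery that docks synaptic vesicles and releases their content was followed through 5-methylcytosine (5mC) and 5-hydroxymethylcytosine (5hmC) in sorted cells of the developing mouse cortex. Every peak was taken whose nearest gene, as annotated by the authors, is a synaptotagmin (Syt), Doc2, syntaxin (Stx), SNAP, VAMP, syntaxin-binding protein (Stxbp), complexin (Cplx), Rab3, RIM (Rims), Unc13, synapsin (Syn), Sv2, synaptophysin (Syp) or synaptogyrin (Syngr) gene. The rule used gene symbols alone and no measured value. It gave 162 of 55085 5mC peaks, at 54 genes, and 170 of 47478 5hmC peaks, at 53 genes. Together these are 63 genes, of which 44 had peaks of both marks, 10 had 5mC peaks alone and 9 had 5hmC peaks alone. In RefSeq, 82 mouse genes carry a symbol that the rule takes, and for 19 of them the tables used here list no peak under that symbol, among them Vamp2, Syn1 and Cplx1. Snap91, which encodes the clathrin assembly protein AP180, entered by its name alone.

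Cells came from the cortex of E14.5 mouse embryos (E, embryonic day) that were double heterozygous for Btg2-RFP and Tubb3-GFP, 2 reporters that mark neurogenic commitment and neurons. Proliferative progenitors (PP) lacked both reporters, differentiative progenitors (DP) carried RFP without GFP, and neurons (N) carried GFP whether or not RFP was present. No treatment was given, and all groups shared the same genotype. There are 12 samples: for each of 3 cell types and 2 marks, an immunoprecipitate (IP) and its input, by MeDIP for 5mC and hMeDIP for 5hmC. The deposited tables give 1 mean level per peak and cell type, so replicate error cannot be stated and no test was run. A level is log2 of the mean normalized reads in a peak, and levels are compared within a peak, since reads per peak also depend on its length and CpG content. The tables average the biological replicates that the study's methods state and carry no read counts, so no counting error can be given for a mean. Barcoded DNA of the cell types was pooled before each IP.

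A change is the difference of 2 levels minus the median difference of all peaks of that mark, which was -0.18 for 5mC from DP to N and -0.17 from PP to N, and between -0.08 and 0.00 for the other comparisons. A gain or a loss is a change of at least 0.58 on the log2 scale, called 1.5-fold here. Exactly 1.5-fold is 0.585, and 5 of the 210 gains and losses of member peaks over the 3 comparisons lie between these limits.

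Neurotransmitter is released when a vesicle SNARE protein (VAMP) zippers with the plasma membrane SNAREs syntaxin and SNAP-25, a reaction held by complexin and triggered by calcium binding to synaptotagmin. Munc13 (Unc13a) prepares syntaxin for this, and RIM and Rab3 tether the vesicle at the release site. In DNA, 5mC is oxidized to 5hmC by TET enzymes, and 5hmC is abundant in neurons.

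None of the member peaks of either mark reached into the RefSeq promoter windows used here (250 bases before to 50 after a start). These windows do not cover every start. None lies at the start of the longest Syt3 model, 23 bp past the end of a 5mC peak. The same holds for the first base of Stx18 in RefSeq, which lies just before a 5hmC peak. Among all 32851 windows, 1.1% overlapped a 5mC peak and 1.26% a 5hmC peak, and of the 77 windows that belong to 61 genes of the rule, 0 overlapped a peak of either mark. The 47 member genes with a peak and a window had a median of 20 CpG in the window nearest to the start used by the authors, against 7 over all windows. These sets are unlike, since all windows include genes without a peak and several starts of the same gene. E-boxes (CANNTG, which reads the same on both strands) were in 32 of these 47 windows (68.1%) and in 72.3% of all windows. The 4 windows printed here were chosen after the values were seen, and show the starts of Syt3, Rab3a and Syt6, whose peaks hold large changes of 1 or both marks, and of Stx1a, which has a 5hmC peak just upstream. Sequences are from RefSeq on GRCm38.p6, 5′ to 3′, with CpG in capitals.
Syt3, chr7:44383876-44384175, plus strand: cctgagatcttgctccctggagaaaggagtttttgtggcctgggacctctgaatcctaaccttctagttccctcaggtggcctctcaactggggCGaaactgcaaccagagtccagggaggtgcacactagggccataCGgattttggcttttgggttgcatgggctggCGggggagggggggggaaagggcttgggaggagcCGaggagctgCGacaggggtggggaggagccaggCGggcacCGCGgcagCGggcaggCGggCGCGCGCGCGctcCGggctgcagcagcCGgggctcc
Rab3a, chr8:70754453-70754752, plus strand: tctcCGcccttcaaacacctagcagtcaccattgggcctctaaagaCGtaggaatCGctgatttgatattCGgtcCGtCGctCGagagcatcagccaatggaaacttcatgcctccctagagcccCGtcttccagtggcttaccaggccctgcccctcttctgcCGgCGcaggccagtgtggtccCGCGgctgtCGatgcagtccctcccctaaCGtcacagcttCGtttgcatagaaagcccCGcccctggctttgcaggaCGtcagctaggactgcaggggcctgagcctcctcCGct
Syt6, chr3:103574995-103575294, plus strand: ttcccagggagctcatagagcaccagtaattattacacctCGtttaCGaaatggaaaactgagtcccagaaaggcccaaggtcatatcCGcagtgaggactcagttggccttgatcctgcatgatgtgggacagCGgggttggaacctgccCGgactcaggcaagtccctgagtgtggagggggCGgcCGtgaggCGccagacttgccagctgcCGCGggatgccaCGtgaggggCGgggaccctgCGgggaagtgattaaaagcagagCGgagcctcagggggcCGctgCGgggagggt
Stx1a, chr5:135023232-135023531, plus strand: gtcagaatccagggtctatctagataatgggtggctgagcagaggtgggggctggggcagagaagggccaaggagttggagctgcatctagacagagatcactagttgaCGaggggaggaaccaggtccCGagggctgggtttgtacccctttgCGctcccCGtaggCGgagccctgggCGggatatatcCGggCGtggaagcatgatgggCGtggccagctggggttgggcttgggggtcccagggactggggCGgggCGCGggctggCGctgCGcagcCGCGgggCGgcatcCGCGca
The Syt3 window holds 17 CpG and lies 1126 bp from the 5mC peak with the largest loss. The Rab3a window holds 18 CpG and lies 677 bp from a 5hmC peak and 1087 bp from a 5mC peak. The Stx1a window holds 19 CpG and lies 412 bp from a 5hmC peak, and the Syt6 window holds 16 CpG with its nearest 5mC peak 9858 bp away.

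Member peaks lay inside their gene more often than peaks in general. The authors' annotation put 111 of the 162 5mC peaks (68.5%) inside the gene, against 40.2% of all 5mC peaks, and 95 of the 170 5hmC peaks (55.9%), against 36.2%. Member genes were also longer, with a median of 44.1 kb for genes with a 5mC peak and 59.6 kb for 5hmC. All genes had medians of 27.4 and 31.1 kb, known only for the 71.2% and 71.4% with a RefSeq protein-coding length. The part of gene length in the share inside was not tested. The median distance to the start of the gene was 15.2 kb for 5mC and 17.9 kb for 5hmC, against 20.4 and 27.2 kb for all peaks. Few peaks were close to a start, with 3 of the 5mC peaks and 8 of the 5hmC peaks within 1 kb. Of the peaks that the authors placed outside the gene, 18 of 51 for 5mC and 16 of 75 for 5hmC have their centre inside another RefSeq protein-coding gene. For example, 6 of the peaks named for Syt3 lie in Shank1 and 4 named for Rab3a lie in Pde4c. At Cplx2 the start used by the authors is that of a short transcript, and 5 5mC and 5 5hmC peaks placed upstream of it lie inside the RefSeq gene.

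Most of the 63 genes were expressed at a higher level in neurons. The tables carry 1 expression score per gene and cell type from earlier RNA-seq of the authors on the same cell types, on a scale that they do not name, so scores are compared within a gene. From PP to N, 37 of 63 genes (58.7%) were higher by at least 1.5-fold, against 30.0% of all 16293 genes with a peak, and 15 (23.8%) were lower, against 31.4%. The larger step was from DP to N, with 39 genes higher and 11 lower (all genes 26.4% and 26.3%). From PP to DP, 19 were higher and 13 lower (all genes 13.9% and 17.1%). At both steps the score increased for 32 genes (50.8%, all genes 29.3%), and DP held the highest score for 4 genes (6.35%, all genes 18.6%).

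Synaptic members led the rise. Of the 10 core release genes with a peak, 10 were higher in N than in PP, against 30.0% of all genes. Among them were Syt1, Stx1a, Snap25, Unc13a, Rims1, Cplx2, Syp, Sv2a and Rab3a. The largest rises were those of Sv2b, a vesicle glycoprotein, from a score of 10.7 in PP to 102.8 in DP and 1516.5 in N, and of the small GTPase gene Rab3c, from 131.4 to 1402.1 and 16272.5. Syt1, the fast calcium sensor of release, went from 69.6 to 142.0 and 6546.7, so that nearly its whole rise came after DP. Snap25 went from 114.0 to 1077.0 and 8343.2, and Syt4 from 236.2 to 1460.8 and 10078.8.

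Several genes used in membrane traffic outside synapses were lower in N. Of the 4 VAMP genes with a peak, 3 were lower in N than in PP (all genes 31.4%) and Vamp4 was within 1.5-fold. Vamp8, an endosomal and secretory SNARE, fell from 122.4 to 75.9 and 6.9, Vamp5 from 11.8 to 3.0 and 1.0, and Vamp3 from 3370.0 to 2185.4 and 1050.7. The largest fall was that of Syngr2, the synaptogyrin of non-neuronal cells, from 737.3 to 458.2 and 9.5. Syt13, a synaptotagmin that does not bind calcium, fell from 639.3 to 218.7 and 66.9. Doc2a fell from 810.6 to 331.7 and 183.4, and the RIM gene Rims3 from 1633.7 to 964.3 and 986.2. The fall was thus not confined to genes of traffic outside synapses. Snap23 and Stx4a, the plasma membrane partners used outside neurons, were also lower in N. Not every SNARE of general traffic was, since 7 of the 12 syntaxin genes were higher in N than in PP (all genes 30.0%). Endosomal Stx7 was among them, with 1037.0, 1482.6 and 5480.4. Rims2, Syt2, Syt9 and Sv2c were within 1.5-fold from PP to N.

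**Figure D1:**
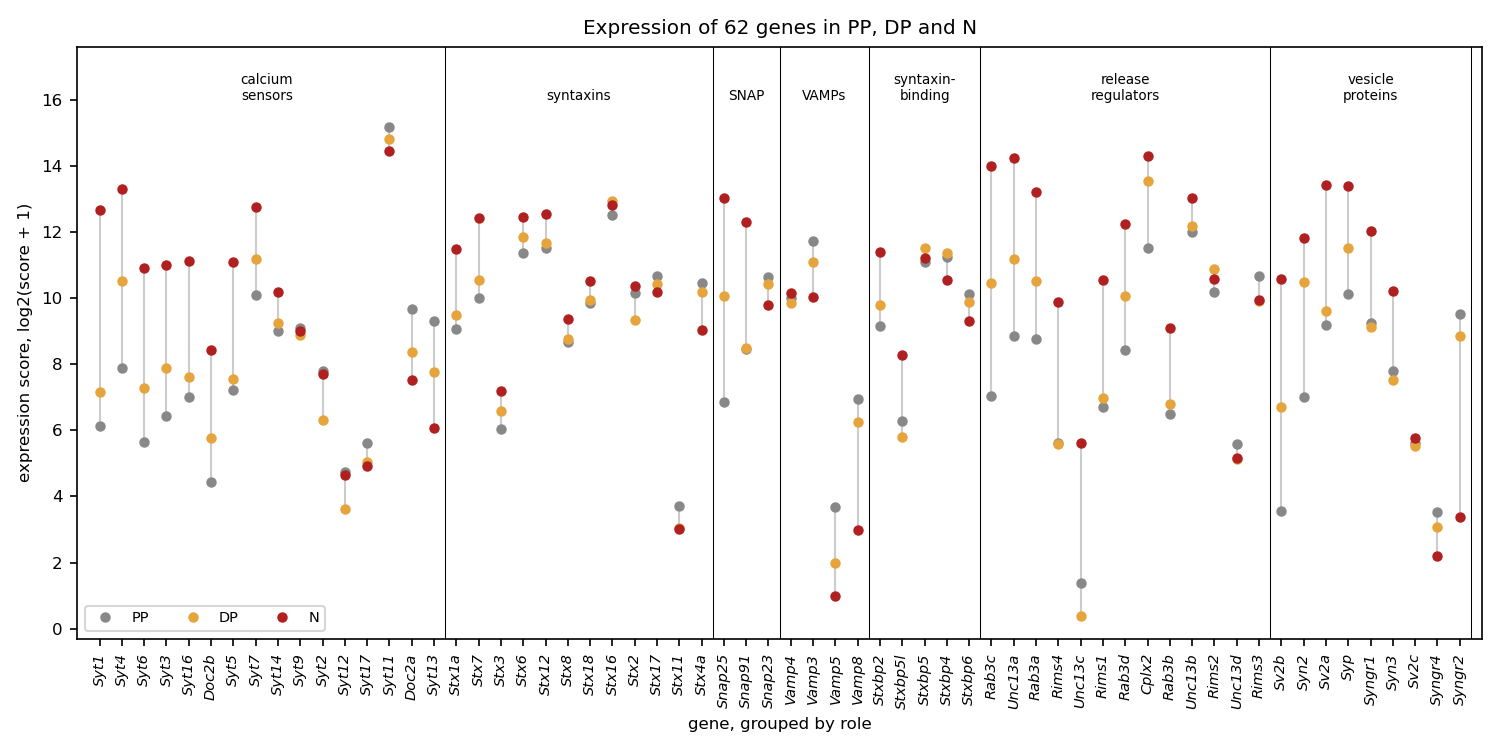
Expression score of 62 of the 63 genes in PP (grey), DP (amber) and N (red), as log2(score + 1), with the genes grouped by role and ordered within a role by the change from PP to N. N is the highest point for Syt1, Snap25, Rab3c and Sv2b, and the lowest for Syt13, Vamp8 and Syngr2. Scores are to be read within a gene.

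Markers in the same tables matched the sorted cell types. All 6 progenitor markers with a peak were lower in N than in PP, all 4 DP markers were higher in DP than in PP, and all 5 neuron markers were higher in N than in PP. Btg2 and Tubb3, the genes of the sorting reporters, are among the DP and neuron markers and are no independent check. The summed scores of other cell types also moved: 2 interneuron markers went from 425 in PP to 1268 in DP and 5282.5 in N, 2 microglia markers from 309 to 189 and 74.9, and 3 endothelium markers from 352 to 308 and 86.1. Of the 4 astrocyte and oligodendrocyte markers 3 fell from PP to N, Gfap from 18.9 to 0, Aqp4 from 155.6 to 14.9 and Olig1 from 38.6 to 0.7, while Mbp went from 666.8 to 1102.6. Their part in the differences of the member genes was not tested.

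Against this shift in expression, the median member peak stayed near the median of all peaks. In the order PP to DP, DP to N and PP to N, medians were -0.03, -0.05 and -0.04 for 5mC and -0.06, -0.01 and -0.09 for 5hmC. From PP to N, 138 of the 162 5mC peaks (85.2%) and 113 of the 170 5hmC peaks (66.5%) were within 1.5-fold, against 84.5% and 69.9% of all peaks.

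For 5mC, 18 member peaks (11.1%) were lost and 6 (3.70%) gained from PP to N, against 10.4% and 5.15% of all peaks. From PP to DP, 15 (9.26%) were lost and 11 (6.79%) gained, against 5.56% and 4.72%. From DP to N, 21 (13.0%) were lost and 11 (6.79%) gained, against 9.48% and 5.23%. For 5hmC, 39 member peaks (22.9%) gained and 18 (10.6%) lost signal from PP to N, against 22.2% and 7.91%. From PP to DP, 23 (13.5%) gained and 8 (4.71%) lost, against 11.3% and 4.77%. From DP to N, 21 (12.4%) gained and 19 (11.2%) lost, against 16.6% and 7.22%. In percentage points the widest distances from all peaks were from DP to N in 5hmC, where the share of gains was lower and that of losses higher, and as a ratio that of the 5mC losses from PP to DP. Without subtracting the shift of all peaks, 33 peaks lost and 1 gained 5mC from PP to N (20.4% and 0.617%, all peaks 16.6% and 2.17%). From DP to N 30 lost and 8 gained it (18.5% and 4.94%, all peaks 15.8% and 2.32%), and from PP to N 34 gained and 25 lost 5hmC (20% and 14.7%, all peaks 20.4% and 11.1%). The 39 5hmC gains from PP to N lay at 24 genes, 10 of which had at least 2, and the 18 5mC losses at 15 genes.

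**Figure D2:**
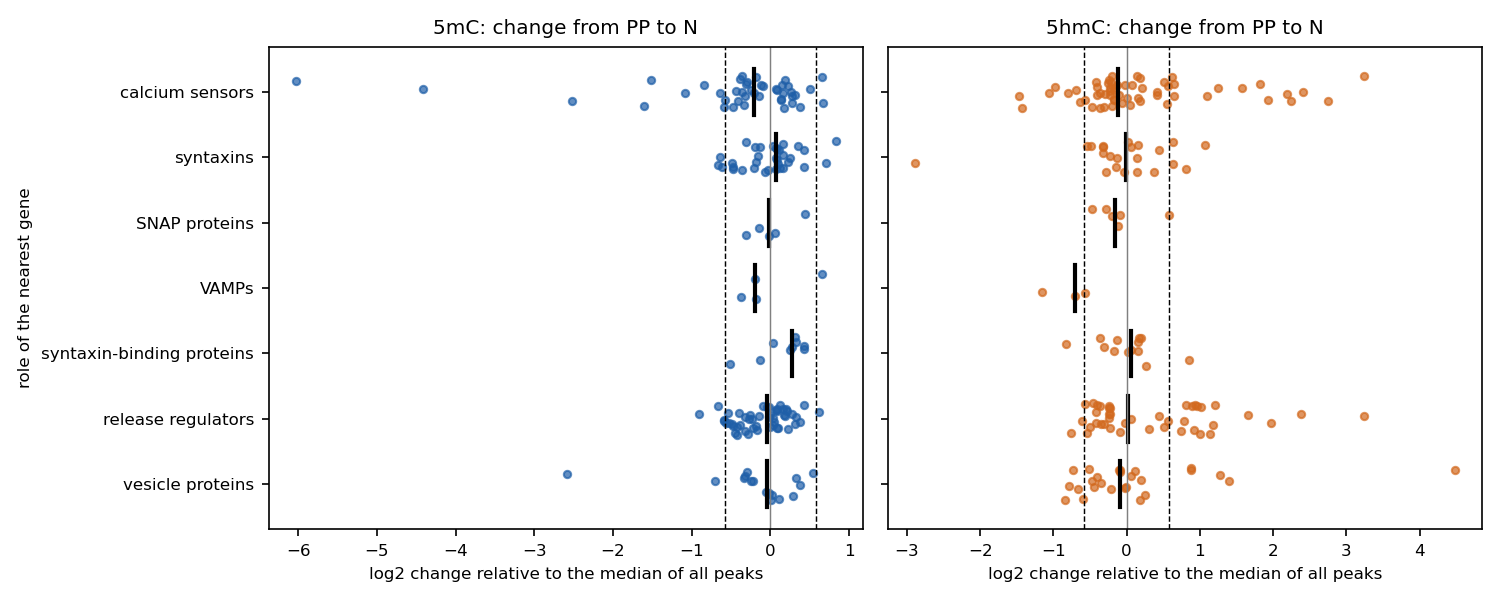
Change of each member peak from PP to N for 5mC (left) and 5hmC (right), in log2 relative to the median of all peaks of the mark, by the role of the nearest gene. Black bars are medians and dashed lines mark 1.5-fold. The medians sit near 0 in most roles, with single peaks of calcium sensors (all Syt and Doc2 genes), release regulators and vesicle proteins far out.

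The Syt and Doc2 genes, grouped as calcium sensors by symbol alone, held the 2 largest 5mC losses from PP to N, at Syt3 and Syt1. The group includes Syt13, which does not bind calcium, so its shares are those of a gene family. The 12 Syt and Doc2 genes with a 5mC peak had 43 peaks, of which 9 were lost (20.9%, all peaks 10.4%) and 2 gained (4.65%, all peaks 5.15%) from PP to N. The 14 with a 5hmC peak had 58, of which 13 gained (22.4%, all peaks 22.2%) and 7 lost signal (12.1%, all peaks 7.91%).

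Syt3, a synaptotagmin of the plasma membrane, had 11 5hmC peaks, the most of any member gene, and 3 5mC peaks. The 5mC peak at chr7:44382544-44382750, 1456 bp upstream of the start used by the authors, stood at 6.32 (PP), 5.70 (DP) and 0.11 (N). This is a loss already from PP to DP (-0.61), followed by -5.41 from DP to N, the largest 5mC change of any member peak. Its level in N is the lowest that the neuron column holds, a value shared by 38 peaks, so the size of the change is set by that lowest value. The peak ends 23 bp before the first base of the longest Syt3 model in RefSeq and lies in the overlapping gene 1700008O03Rik. A 5hmC peak 2206 bp upstream went the other way, from 2.43 to 4.11 and 4.55. A second 5mC peak, 13.8 kb upstream, had 5.13, 5.23 and 4.12. The remaining 5hmC peaks ran back to 36.0 kb upstream. From PP to N they included 2 losses and 1 gain of 0.70 or less in size, and from DP to N 3 losses of -0.62 to -0.87.

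Syt1 had 6 5mC peaks, of which 3 were lost from PP to N, and 5 5hmC peaks. Its peak at chr10:108815635-108815830, 195 kb into the gene of 513 kb, went from 5.05 in PP to 4.42 in DP and 0.47 in N, a change of -4.41. A further 5mC peak 240 kb into the gene had 6.39, 5.80 and 4.62, and another at 59.7 kb had 5.61, 5.34 and 4.80. The 5hmC peak that adjoins the first of these by 1 bp also fell, from 5.12 and 4.99 to 3.97. A 5mC peak 109 kb into the gene was highest in DP, with 4.57, 5.32 and 4.67. So were those at 235 kb (4.81, 5.19 and 4.86) and 64.5 kb (4.56, 5.07 and 4.89).

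Syt6 had a single strong site, 12.1 kb into the gene, where 5mC went from 4.77 to 3.77 and 2.09 and 5hmC from 4.27 to 5.30 and 6.43. Syt16 had a like site 57.4 kb into the gene, with 5mC levels of 5.07, 5.11 and 3.38 and 5hmC levels of 2.53, 2.18 and 4.86, so that both changes came after DP. In Syt4, a regulator of dense-core vesicles, both 5hmC peaks gained signal, from 2.47 to 4.20 and 5.14 at 839 bp and from 4.07 to 4.67 and 5.56 at 1511 bp from the start, and no 5mC peak is listed.

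In Syt2 both 5hmC gains, 1.5 to 2.71 and 4.66 in a peak placed 26.9 kb upstream and 2.38 to 3.28 and 4.11 at 28.3 kb inside, came with an expression score of 219.5 in PP, 79.3 in DP and 206.1 in N. Syt17, with a score of 48.5, 32.0 and 29.1, had a peak 14.1 kb into the gene where 5hmC went from 4.69 to 4.64 and 6.55. Gains of 5mC were seen in Syt9, where a peak at 61.0 kb had 4.64, 5.51 and 5.14 and one at 2985 bp had 4.08, 4.63 and 4.57.

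Of the Syt and Doc2 genes with lower expression in N, Syt13 and Doc2a lost 5hmC from PP to N. Syt11 and Syt17 had no 5hmC loss at this comparison. Syt13 lost 5hmC at 515 bp from the start (4.81, 4.49 and 3.30) and at 14.9 kb (4.84, 4.63 and 3.78), and Doc2a lost it 4889 bp upstream (4.71, 4.92 and 3.16). Syt9 had the largest loss from PP to DP, at 11.9 kb into the gene (4.78, 3.36 and 3.89).

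The release regulators (Cplx, Rab3, Rims and Unc13) had 42 5hmC peaks at 13 genes, of which 16 gained signal from PP to N (38.1%, all peaks 22.2%) and 2 lost it (4.76%, all peaks 7.91%). Of their 51 5mC peaks at 13 genes, 4 were lost (7.84%, all peaks 10.4%) and 1 gained (1.96%, all peaks 5.15%). The 16 gains lay at 7 genes, and 6 of them were at Cplx2.

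Cplx2 encodes a complexin abundant in cortical excitatory neurons and had 8 5hmC peaks. The largest gain was 2508 bp inside the start, from 3.38 in PP to 4.12 in DP and 5.67 in N. The peak 13.7 kb downstream of the start, past the gene's end, had 2.56, 3.47 and 4.12, and gains of 0.92 to 1.20 were at peaks placed 61.0, 50.1 and 39.2 kb upstream. At the last of these the overlapping 5mC peak had 4.95, 5.04 and 4.12. Of the 7 5mC peaks of Cplx2 this was the 1 that was lost, and its expression score went from 2914.1 to 12005.8 and 20017.5.

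Rab3a, the main Rab of synaptic vesicles, is a gene of 3.91 kb with a 5hmC peak at chr8:70755824-70755938, 1201 bp inside, that went from 3.04 to 3.58 and 6.20. The overlapping 5mC peak had 6.81, 6.68 and 5.73. A second 5hmC peak 840 bp from the start had 4.52, 4.38 and 5.18, while the 5mC and 5hmC peaks 5.33 to 12.4 kb upstream, within Pde4c, were within 1.5-fold from PP to N. Rab3c gained 5hmC at 141 kb (2.41, 3.93 and 4.30) and 123 kb into the gene (3.43, 4.24 and 4.31), both mainly from PP to DP. Its 5mC peak at 153 kb rose and fell again, with 4.60, 5.30 and 4.00.

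Rims4 had 9 5mC peaks, the most of any member, and 6 5hmC peaks. Gains of 5hmC lay 27.8 kb upstream (5.04, 5.85 and 5.89), 28957 bp upstream (5.13, 5.48 and 6.05) and 27.5 kb inside (3.82, 4.62 and 4.91). The 5mC peak at 5437 bp upstream went from 4.31 to 5.16 and 4.76, and that at 29.2 kb upstream from 4.46 to 4.03 and 3.70. Unc13a, the Munc13 of most cortical synapses, had 7 5mC and 5 5hmC peaks and none that passed 1.5-fold from PP to N. Its expression score rose from 464.3 to 2335.4 and 19247.5. The largest steps within it were a 5mC peak with 4.79, 5.65 and 4.71 at 26.1 kb, and a 5hmC peak with 6.44, 5.76 and 5.85 at 13.9 kb. Rab3d, with 7 5mC peaks, had no 5mC gain or loss from PP to N, and its 5hmC peak went from 4.07 to 4.43 and 4.88. The 2 5mC and 2 5hmC peaks named for Rims1, 76.2 to 123 kb upstream, were within 1.5-fold from PP to N. A further 8 peaks lie inside Rims1 but are named for Kcnq5, and among these 5mC changed by -0.89 to 0.49 and 5hmC by -0.84 to 0.27 from PP to N.

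Of 34 5mC peaks at 12 syntaxin genes, 3 were lost (8.82%, all peaks 10.4%) and 2 gained (5.88%, all peaks 5.15%) from PP to N, and from PP to DP 5 were lost (14.7%, all peaks 5.56%). Of 22 5hmC peaks at 10 syntaxin genes, 1 was lost (4.55%, all peaks 7.91%) and 4 gained (18.2%, all peaks 22.2%) from PP to N. Stx6, a syntaxin of the trans-Golgi and endosomes, had the largest 5hmC loss of any member, 34.6 kb into the gene, from 6.29 to 5.68 and 3.32. A second 5hmC peak 35.9 kb into the gene gained signal, with 5.36, 5.36 and 6.09. Stx1a, the syntaxin of the release machinery, had 5 5mC peaks within 1.5-fold from PP to N. Its 5hmC peak 795 bp upstream had 3.94 in PP, 4.52 in DP and 4.50 in N. The largest 5mC gain of the members from PP to N was in Stx2, at 11.6 kb (4.49, 4.87 and 5.15), the 1 that stayed a gain without subtracting the shift of all peaks, followed by Stx17, 17.7 kb upstream (4.96, 5.33 and 5.50). The 5hmC peak of Stx7 at 18.9 kb went from 5.73 to 6.18 and 6.72.

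Snap25 had 1 5mC peak, with 5.53, 5.69 and 5.42, and 3 5hmC peaks upstream, none of which passed 1.5-fold from PP to N. In Snap91 a 5hmC peak 29.3 kb into the gene had 3.88, 4.98 and 4.37. VAMP genes had 4 5mC peaks, 1 of them gained from PP to N (25%, all peaks 5.15%), at Vamp8, 10.8 kb upstream, with 5.03, 5.52 and 5.51. All 3 5hmC peaks of this group are in Vamp4, and 2 of them were lost (66.7%, all peaks 7.91%). These were at 24.0 kb (5.11, 4.73 and 3.88) and at 5742 bp (4.88, 4.64 and 4.09).

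Syntaxin-binding genes had 9 5mC peaks, none of which passed 1.5-fold from PP to N (all peaks 10.4% lost and 5.15% gained). Their 13 5hmC peaks had 1 gain and 1 loss (7.69% each, all peaks 22.2% and 7.91%). Stxbp2 had a 5mC peak at 6286 bp with 5.17, 4.67 and 5.44.

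Vesicle proteins held the largest 5hmC gain. Of their 26 5hmC peaks at 8 genes, 5 gained signal from PP to N (19.2%, all peaks 22.2%) and 5 lost it (19.2%, all peaks 7.91%). Of their 16 5mC peaks at 6 genes, 2 were lost (12.5%, all peaks 10.4%) and 0 gained (all peaks 5.15%). Syn2, a synapsin, had at chr6:115166854-115166962, 32.0 kb into the gene, levels of 0.40 (PP), 1.84 (DP) and 4.80 (N), a change of 4.48. Few 5hmC peaks start so low, with 946 of all peaks and 2 member peaks under a level of 2 in PP. A second peak at 38.2 kb had 3.59, 4.31 and 4.79, whereas the peak 1055 bp from the start fell from 4.74 to 4.42 and 3.93. Syn3 lost 5mC 18.8 kb into the gene, from 4.87 to 3.70 and 2.12, and the overlapping 5hmC peak had 4.37, 4.95 and 5.17. Sv2c, whose expression score stayed between 45.4 and 53.4, had 7 5hmC peaks, 3 of them lost and 1 gained (48.2 kb upstream, with 4.66, 5.19 and 5.98). In contrast, Sv2a and Syp, with large rises in expression, had none of their 7 5hmC peaks past 1.5-fold from PP to N. Of their 6 5mC peaks, 1 was lost, 10.5 kb upstream of Syp, with 4.33, 3.74 and 3.46.

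**Figure D3:**
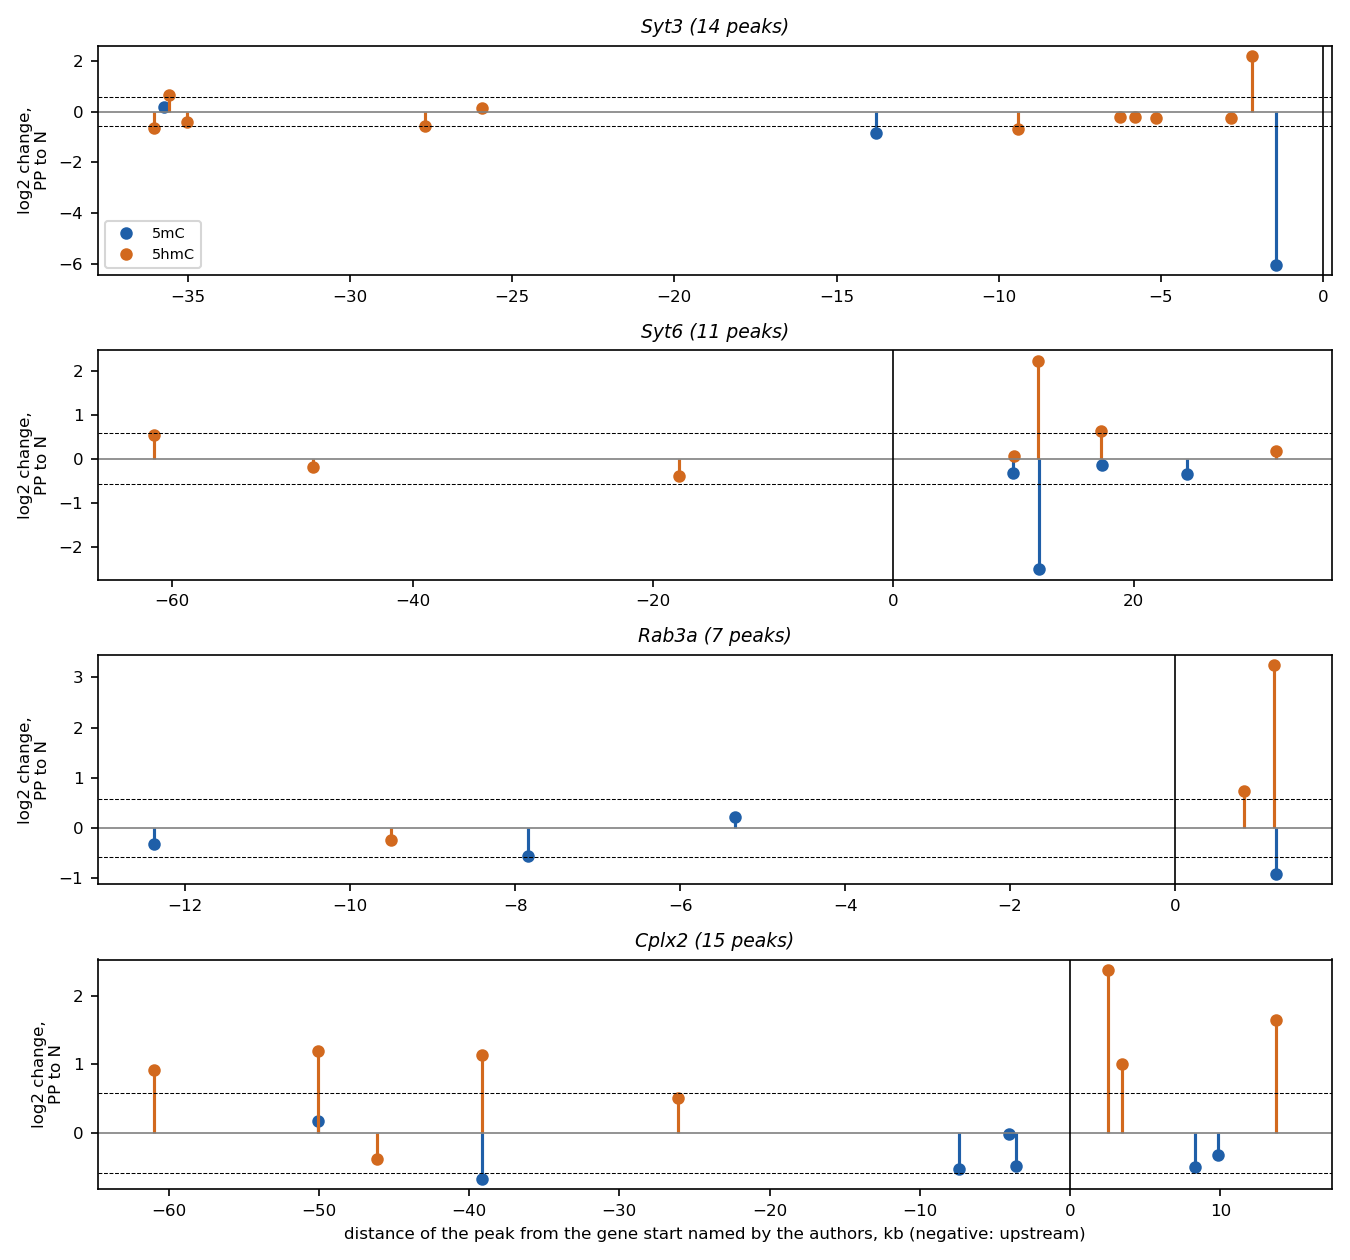
Change from PP to N of every 5mC (blue) and 5hmC (orange) peak named for Syt3, Syt6, Rab3a and Cplx2, in log2 relative to the median of all peaks of the mark, against the distance in kb from the gene start used by the authors. Dashed lines mark 1.5-fold. The 5mC loss 1456 bp upstream of Syt3 and the paired changes inside Syt6 and Rab3a stand out, while at Cplx2 6 5hmC gains are spread along the locus.

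Peaks of both marks overlapped in 20 pairs at 14 member genes, 12.3% of the 5mC and 11.8% of the 5hmC member peaks, against 12.2% and 14.2% of all peaks. From PP to N, 5 of the 20 pairs (25%) combined a 5mC loss with a 5hmC gain, against 19.0% of all 6727 pairs. They lie in Syt6 (-2.51 for 5mC and 2.24 for 5hmC), Rab3a (-0.91 and 3.24), Syt16 (-1.52 and 2.41), Syn3 (-2.58 and 0.88) and Cplx2 (-0.66 and 1.14). All 5 genes were more highly expressed in N than in PP, as were 37 of the 63 member genes (58.7%). A link between the paired changes and expression was not tested. The pair in Syt17 (-0.58 and 1.93) is just under the 5mC threshold before rounding, and that upstream of Rims4 (-0.54 and 0.93) is also close to it. In all, 12 of the 20 pairs gained 5hmC, 6 lost 5mC and 4 lost 5hmC, and 0 gained 5mC. The same shares over all pairs were not counted, but all pairs leaned the same way. Their median changes were -0.15 for 5mC and 0.41 for 5hmC, against -0.28 and 0.76 for the member pairs. Both changes were opposite in sign in 14 of the 20 member pairs and in 67.9% of all pairs. The Syt1 pair, which meets by 1 bp, lost both marks (-4.41 and -1.07). Spearman's rho of the paired changes was -0.43 over the 20 member pairs and -0.51 over all pairs. The points of a pair share the pooled cells and CpG content.

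**Figure D4:**
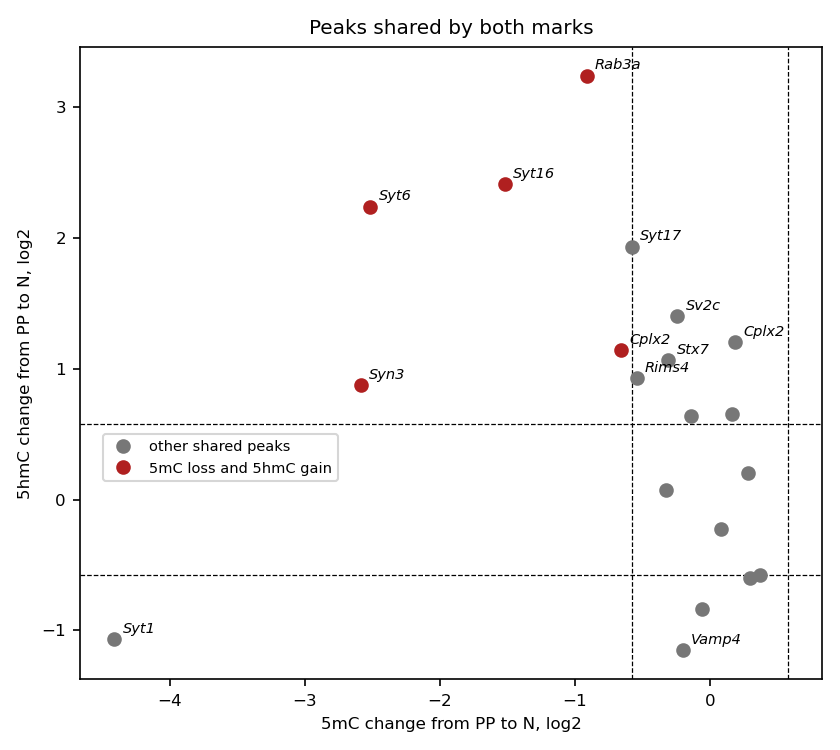
Change from PP to N in 5mC (horizontal) and 5hmC (vertical) of the 20 pairs of overlapping member peaks, in log2 relative to the median of all peaks of each mark. Dashed lines mark 1.5-fold, red points are the 5 pairs with 5mC loss and 5hmC gain, and the grey point at the lower left is the pair in Syt1.

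The course through DP differed between peaks. At the 18 peaks that lost 5mC from PP to N, a median of 35.4% of the log2 change was reached in DP, against 25.5% over all such peaks. Yet only 3 of these 18 (16.7%) had over 50% of the change in DP, against 26.7% of all such peaks. At the 39 that gained 5hmC the median was 40.5%, against 39.5%, and 14 (35.9%) had over 50% in DP, against 35.8%. Losses of 5mC at both steps were seen in 5 member peaks (3.09%, all peaks 0.726%), in Syn3, Syt3, Syt6 and at 2 sites in Syt1, 1 of which is under exactly 1.5-fold from PP to DP. Another 7 peaks (4.32%, all peaks 1.73%) lost 5mC from PP to DP and gained it from DP to N, in Snap91, Stx6, Stxbp4, Syt13, Syt2 and at 2 sites in Stx7. For example, a peak 17.4 kb into Syt2 had 4.46, 3.48 and 4.46, and a peak 7932 bp into Stx7 had 4.65, 3.70 and 4.57. Both steps share the DP level, so a low DP value gives such a course by itself. For 5hmC, 8 peaks gained at both steps (4.71%, all peaks 5.86%), at Cplx2, Syn2, Syt2, Syt4 and Syt6, and 1 peak, in Stx6, lost at both.

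**Figure D5:**
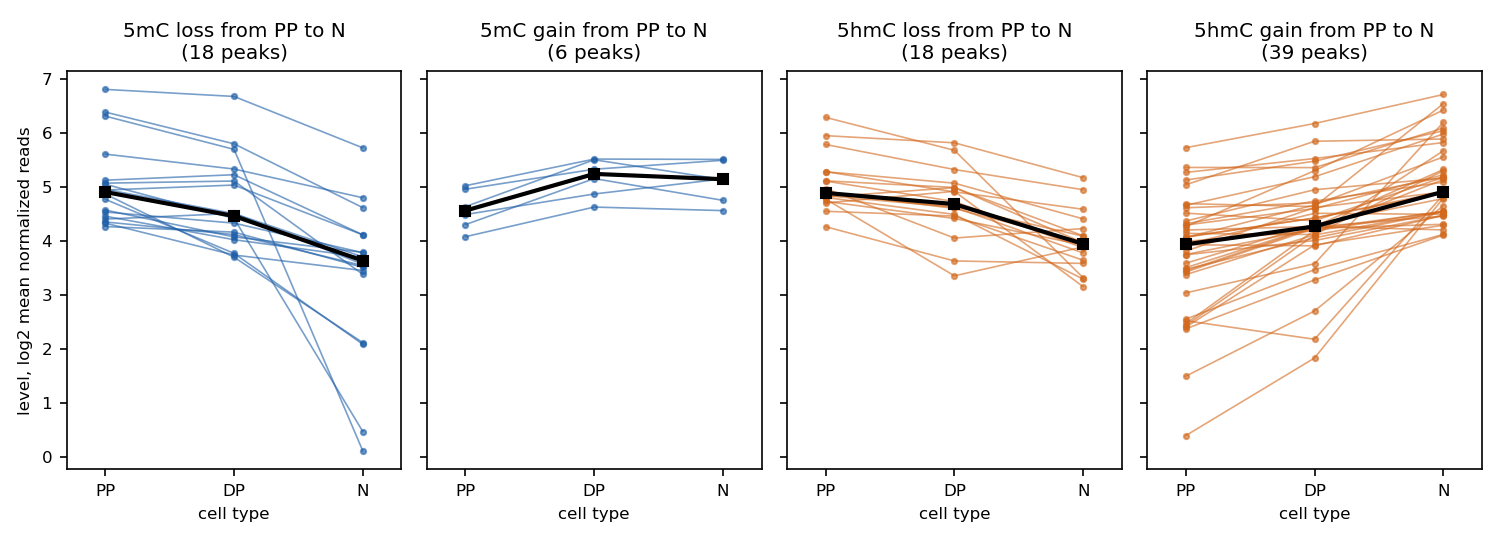
Level of the member peaks with a 5mC loss, 5mC gain, 5hmC loss or 5hmC gain from PP to N, in log2 mean normalized reads, in PP, DP and N. Thin lines are single peaks and black squares are medians. Among the 18 5mC losses the peaks of Syt3 and Syt1 end near 0 in N, and among the 39 5hmC gains the peak of Syn2 starts at 0.40 in PP.

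Peaks were then split by the expression of their gene. Near the 32 genes with 5mC peaks and higher expression in N, 15 of 103 peaks (14.6%) lost 5mC and 1 gained it (0.971%), against 13.0% and 4.53% of all peaks near such genes. Near the 36 genes with 5hmC peaks and higher expression, 34 of 119 peaks (28.6%) gained 5hmC and 9 (7.56%) lost it, against 24.9% and 7.61%. Near the 12 genes with 5mC peaks and lower expression, 1 of 28 peaks lost 5mC and 1 gained it (3.57% each), against 8.76% and 5.55%. Near the 9 genes with 5hmC peaks and lower expression, 1 of 22 peaks gained (4.55%) and 3 lost signal (13.6%), against 20.2% and 7.95%. Genes within 1.5-fold in expression had the highest share of 5hmC losses, with 6 of 29 peaks at 8 genes (20.7%, against 8.20%), beside 4 gains (13.8%, against 21.1%). The 6 losses came from 3 of these genes, with 3 at Sv2c, 2 at Vamp4 and 1 at Syt9. Of 31 5mC peaks at 10 genes within 1.5-fold in expression, 2 were lost (6.45%, against 9.28%) and 4 gained (12.9%, against 5.38%). The 34 gains came from 20 of the 36 genes, so 16 of the genes with higher expression had no 5hmC gain, Unc13a, Snap25, Sv2a and Syp among them.

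Other genes of the vesicle cycle (endocytosis, active zone, vesicle transporters and related genes) were listed beside the members. Of 51 listed, 39 had a peak of either mark. Of these, 29 were more highly expressed in N than in PP and 2 less, against 30.0% and 31.4% of all genes with a peak. Of their 138 5mC peaks, 16 were lost (11.6%, all peaks 10.4%) and 8 gained (5.80%, all peaks 5.15%) from PP to N, and of their 135 5hmC peaks, 26 gained (19.3%, all peaks 22.2%) and 8 lost signal (5.93%, all peaks 7.91%). From PP to DP, 3 of the 5mC peaks were lost (2.17%, all peaks 5.56%) and 7 of the 5hmC peaks gained (5.19%, all peaks 11.3%). Bsn, which encodes the active zone scaffold bassoon, paired a 5mC peak with 4.86, 5.01 and 2.85 and a 5hmC peak with 2.83, 3.17 and 5.71, both 35.4 to 35.5 kb into the gene. Itsn1, an endocytic adaptor gene, had a pair of 5hmC peaks that went from 0.35 to 2.98 and 4.85 and from -0.05 to 1.55 and 4.43. Rph3a, encoding the Rab3 effector rabphilin, lost 5mC 0.68 kb upstream, from 5.63 and 5.66 to 2.58.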

How the data were processed

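The authors mapped single reads to mm10 (BWA 0.7.8-r455), called peaks with SICER 1.1, kept peaks found in all replicates of a cell type and away from repeats, computed TMM values in DiffBind, and named the nearest gene with HOMER 4.7, per the labels and the study's methods. The deposited level columns hold log2 mean normalized reads per peak and cell type. The deposited expression columns hold a score from earlier RNA-seq by the authors, and the deposited distance column gives bp to the gene start. The authors' own comparisons (fold changes with p-values between cell types, and expression changes with adjusted p-values) were not used. The tables hold no replicate values, input signal or counts, so no test was run.

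Levels were subtracted between cell types and centred on the median difference of all peaks of the mark, and a gain or loss needed 0.58 on the log2 scale, the rounded value of 1.5-fold. Expression changes used a pseudocount of 1. Overlap needed 1 bp. Shares were set beside those of all peaks or genes. No repeated row was a member. Results that need certain genes are not reported here. Scripts ran in Python 3.11.15 with pandas 2.3.3 and numpy 2.4.6 and were tested on simulated data. RefSeq tables (GRCm38.p6, the build of mm10) gave gene spans and promoters, and 61 of the 82 genes of the rule had a promoter window.

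Named peaks were, per mark, step and direction, the 3 with the largest change whose higher level reached the median of the mark, with every shared peak of 5mC loss and 5hmC gain, the core release genes, the 5 genes with most peaks of each mark and the 5 with the largest rise and fall in expression. Further peaks were named after their values were seen. The members and lists were chosen with earlier results of these data known.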

Additional observations from a re-analysis of the deposited data

How the results depend on the processing

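In all, 155 alternative values were computed for the counts and medians, 129 of which stayed within 1.5 times the value reported, or within 0.1 for a median, and 26 moved. With a fold minimum of 2, which leaves fewer peaks by construction, 5mC losses made up 1.23% (PP to DP), 4.32% (DP to N) and 4.32% (PP to N) of member peaks, against 0.960%, 3.30% and 4.00% of all peaks. In the same order 5mC gains made up 0%, 2.47% and 0% (all peaks 0.659%, 0.704% and 0.677%), 5hmC losses 0.588%, 2.35% and 2.94% (0.560%, 1.19% and 1.24%), and 5hmC gains 4.71%, 5.29% and 12.9% (5.07%, 8.03% and 14.2%). An overlap of at least 50% of the shorter peak left 15 member pairs, 4 of them with 5mC loss and 5hmC gain, against 1156 of all 5714 pairs. A fold minimum of 2 left 2 of the 20 shared member peaks with 5mC loss and 5hmC gain, against 620 of all 6727 pairs. In the order of steps used above, it left 6, 6 and 8 of the 63 genes with lower expression, against 8.14%, 18.0% and 22.9% of all genes. Without centring, 20.4% of the member peaks lost 5mC from PP to N (16.6% of all peaks) and 0.617% gained it (2.17%), and the median 5mC change was -0.23 from DP to N and -0.21 from PP to N, as the shift of all peaks is then kept. Among peaks at or above the median level, 5mC losses from PP to DP made up 4.49% (all such peaks 2.87%), 5mC gains from DP to N 1.20% (2.93%), and 5hmC gains from PP to DP 5.88% (5.87%). For these the cause was not tested. A mean per gene gave a median 5hmC change of 0.0274 from PP to N. With a pseudocount of 50, 7 of 63 genes were lower in DP than in PP, against 6.95% of all genes. With a mean score of at least 100, 7 of 54 were lower, against 10.2% of all such genes. Raising levels under 2, autosomes alone, peaks in or within 10 kb of the gene, repeated peaks once, and leaving out Rims4 (5mC) or Syt3 (5hmC) moved no share by over 1.5 times, though within 10 kb the number of 5hmC losses from PP to DP was 5 and not 8, among fewer peaks. With exactly 1.5-fold as the limit, chosen after seeing the data, no share or count moved by over 1.5 times, and 4 peaks in place of 5 lost 5mC at both steps.

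No paired analysis was possible because the tables hold 1 mean per cell type. No replicate was left out, for the same reason. The motif search in peak windows was not run. The 1.5-fold limit stands without an error for any single peak, and peaks near the lowest level of a column have folds set by it.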

Other observations

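Naming a peak for the nearest gene start leaves out part of the long genes of this machinery. In the RefSeq spans of the 82 genes, 81 5mC peaks at 28 genes and 62 5hmC peaks at 24 genes are named for a gene outside the rule. From PP to N, 11 of these 5mC peaks were lost and 3 gained, 13.6% and 3.70% against 10.4% and 5.15% of all peaks. Of the 5hmC peaks 11 gained and 7 lost signal, 17.7% and 11.3% against 22.2% and 7.91%. These peaks were looked at after the member peaks, and no alternative was run on them.

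Syn3 held 18 of them, named for Timp3, a metalloproteinase inhibitor gene nested in its intron. At 86317586 on chromosome 10 a peak of each mark starts at the same base. There 5mC went from 5.20 in PP to 3.82 in DP and 2.65 in N, and 5hmC from 3.12 to 4.71 and 5.10. A second pair had 5mC levels of 3.95, 3.29 and 2.06 and 5hmC levels of 4.23, 4.97 and 5.68. Sv2c held 16, named for the predicted gene Gm17190, with a 5mC peak that went from 4.28 to 2.79 and 0.89 and a pair of 5hmC peaks that went from 3.96 to 4.46 and 5.68 and from 3.17 to 4.23 and 5.34. Both genes thus have peaks with large 5mC losses or 5hmC gains beyond those counted by nearest gene.

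Stxbp3 is listed under its older symbol Stxbp3a, with 2 peaks of each mark, so its count of 0 follows from the name. Syn1, also without a member peak, held 4 5hmC peaks named for Timp1 and AL671885.2, and Snap47 held 5 peaks named for its neighbours.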
